A study of Mus musculus with 2 samples.

Results

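Intestinal epithelial transcription factors are described here through 9 genes: Cdx1, Cdx2, Hnf4a, Hnf4g, Gata4, Gata6, Klf4, Klf5 and Elf3. They were taken by symbol, as the rows of the expression table that the platform annotation gives to exactly 1 of these genes. Each of the 9 had 1 such row, out of 72688 rows in all, and the 9 are set against 19682 named genes. The 2 samples were stem cells sorted from small intestine of mice, 1 of circPan3-/- and 1 of circPan3+/+ genotype; circPan3 is a circular RNA made from the gene Pan3. Both came from mice aged 8 weeks that carry Lgr5GFP-CreERT2, in which green fluorescent protein reports Lgr5, a receptor gene of stem cells; cells with this fluorescence were enriched from crypts by flow sorting. The total RNA was read on Affymetrix Clariom D arrays, and the sources used here do not say how many mice gave each sample. Since each genotype has 1 array, there is no replicate spread and no test, so each difference compares these 2 arrays and not the genotypes.

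These factors act together to make a cell intestinal and to mature it. The caudal homeobox factors set intestinal identity. The HNF4 nuclear receptors drive the absorptive programme of enterocytes, and the GATA zinc finger factors pattern the small intestine along its length. Of the Krüppel-like factors, KLF5 is known from dividing crypt cells and KLF4 from differentiated surface and goblet cells. ELF3 is an epithelial ETS factor needed for normal villus differentiation in mice.

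Values are log2 signals from the RMA method, where base 2 is inferred from how far the values range, as no unit is stated. Differences are circPan3-/- minus circPan3+/+, so that 1 is a 2-fold difference. A named gene was set beside the 9 factors when its mean level reached 2.53, the median over all rows, as it did for 14613 genes. Over these genes the median difference was 0.36, and it was 0.50 over the 3528 of them with a mean level within the range of the 9 factors. As a guide to background, the 95th percentile of negative control rows was 5.56 for the circPan3-/- and 5.06 for the circPan3+/+ array, called the control limit below. Exactly equal values in several rows made up 4.20% of the circPan3-/- column and 69.1% of the circPan3+/+ column, and it is not known whether both were processed in the same way. Lgr5, the gene behind the sort, was above the control limit on both arrays, with 7.02 in circPan3-/- cells against 10.91 in circPan3+/+ cells, but 4 of 11 measured stem cell markers, Ascl2 and Smoc2 among them, were under it on both. Pan3 had 5.64 in circPan3-/- cells against 4.84 in circPan3+/+ cells, and the second value was under its control limit. Whether the Pan3 row also reads the circle was not examined, so it does not check the deletion.

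All 9 factor genes had a higher signal on the circPan3-/- array. In a sorted population, more cells of a type and more RNA per cell cannot be told apart, nor can fewer cells and less RNA. The difference was at least 2-fold for 7 of the 9, against 9.68% of the 14613 named genes and 14.1% of the 3528 genes in the same range of level. None of the 9 was at least 2-fold lower, against 2.74% of named genes. The median of the 9 differences was 1.45, the smallest was 0.73 for Hnf4a and the largest was 1.98 for Elf3. In descending order of difference the genes were Elf3, Cdx2, Gata6, Cdx1, Klf5, Klf4, Gata4, Hnf4g and Hnf4a, and with 1 array per genotype no spread is available to say which neighbours in this order differ. The places of Cdx2, Cdx1 and Gata4 in it also rest on circPan3+/+ values under the control limit. The shift of all named genes towards the circPan3-/- array is part of each of these values, and the share of genes above 0 was 78.3%.

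**Figure D1:**
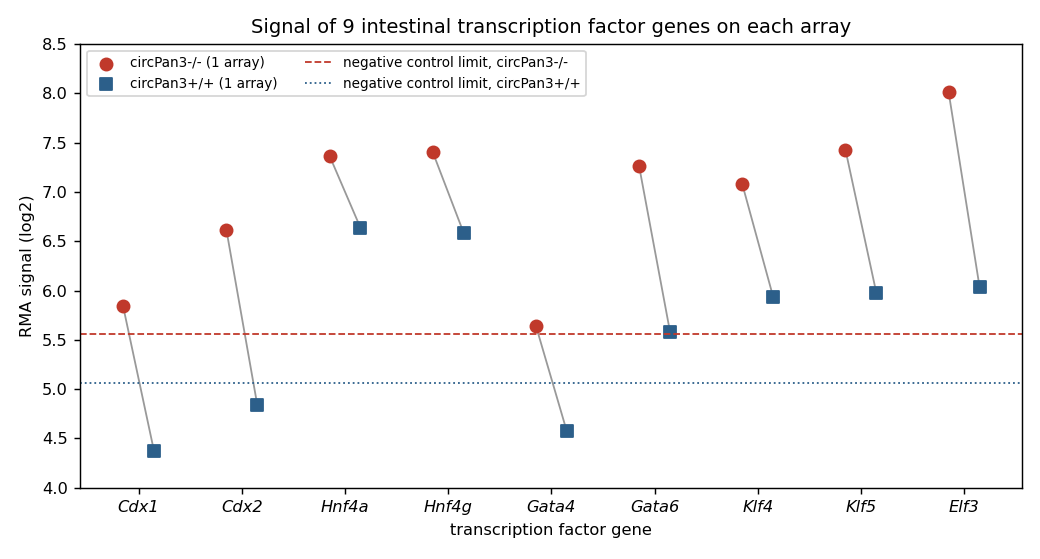
RMA signal (log2, vertical axis) of the 9 factor genes, with the circPan3-/- array as red circles on the left of each pair and the circPan3+/+ array as blue squares on the right; horizontal lines are the 95th percentile of negative control rows on each array. Every red circle is above its blue square, and the circPan3+/+ values of Cdx1, Cdx2 and Gata4 are under the dotted limit of 5.06.

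Both caudal homeobox genes were more than 2-fold higher on the circPan3-/- array as deposited. Cdx2, which encodes the factor that the intestine needs to keep its identity, had a signal of 6.62 in circPan3-/- cells against 4.84 in circPan3+/+ cells. Its difference of 1.78 was the second largest of the 9 and ranked 209 of 14613 genes. The circPan3+/+ value was under the control limit, so that the fold is bounded at 2.95 or more. That value also stood in 142 other rows of the circPan3+/+ column, which was the most sharing of any factor gene. Cdx1, a paralog with its highest expression in crypts, had 5.84 in circPan3-/- cells against 4.37 in circPan3+/+ cells, and the difference was 1.47. Only the circPan3-/- value was above the control limit, which leaves a bound of at least 1.72-fold. Cdx4, the third caudal gene and one of embryonic posterior tissue, had 1.43 in circPan3-/- cells against 1.67 in circPan3+/+ cells, both under the control limits.

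RefSeq windows around the gene start, with 250 bases before it and 50 after, were on hand for Cdx2, Hnf4a, Klf4 and Elf3, 5 windows in all. All were searched on both strands for the letters of 5 motifs: TTTATNG for CDX factors, CAAAGTCCA for HNF4, AGATAA for GATA, GGGNGTGG for KLF and AGGAAGT for ETS factors. The window of Klf4 held none of them. Of 32851 RefSeq promoter windows of the same length, 10.9% held the CDX letters, 0.475% the HNF4 letters, 11.2% the GATA letters, 17.6% the KLF letters and 9.35% the ETS letters. The Cdx2 window lies at chr5:147307200-147307499 on the minus strand of GRCm38.p6 and is shown because Cdx2 had the second largest difference. Capitals mark the only match, GGGGGTGG, which has the KLF letters at bases 121 to 128 of the window.
Cdx2: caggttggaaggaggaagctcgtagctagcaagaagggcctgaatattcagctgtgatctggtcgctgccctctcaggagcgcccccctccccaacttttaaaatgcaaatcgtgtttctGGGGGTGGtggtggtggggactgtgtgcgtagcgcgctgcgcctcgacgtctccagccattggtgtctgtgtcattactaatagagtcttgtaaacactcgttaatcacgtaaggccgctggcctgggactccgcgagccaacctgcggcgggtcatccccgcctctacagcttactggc
A match describes the letters only, and no binding was measured.

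The HNF4 genes differed least of the 9, by less than 2-fold each, and were above the control limits on both arrays. Hnf4a, a nuclear receptor that sustains enterocyte genes, had 7.37 in circPan3-/- cells against 6.64 in circPan3+/+ cells, and the difference was 0.73 or 1.66-fold. Hnf4g, its partly redundant paralog in the mouse intestine, had 7.40 in circPan3-/- cells against 6.58 in circPan3+/+ cells, and the difference was 0.82 or 1.77-fold. These differences were 0.09 apart. Hnf4a ranked 3096 and Hnf4g 2391 of 14613 genes, so that about 21.2% and 16.4% of named genes had a difference as large or larger. After loess on the mean level, which takes out the part of the shift that goes with brightness, 0.20 was left for Hnf4a and 0.29 for Hnf4g.

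Hnf4a has an upstream and a downstream promoter that give proteins with different amino ends. The table has 1 value for the gene and does not tell them apart, and both windows are shown because they are the alternatives behind that value. The upstream window lies at chr2:163506607-163506906 and the downstream one at chr2:163546905-163547204, both on the plus strand of GRCm38.p6. Capitals mark the GATA letters at bases 199 to 204 of the upstream window, and none of the 5 motifs was found in the downstream window.
Hnf4a upstream: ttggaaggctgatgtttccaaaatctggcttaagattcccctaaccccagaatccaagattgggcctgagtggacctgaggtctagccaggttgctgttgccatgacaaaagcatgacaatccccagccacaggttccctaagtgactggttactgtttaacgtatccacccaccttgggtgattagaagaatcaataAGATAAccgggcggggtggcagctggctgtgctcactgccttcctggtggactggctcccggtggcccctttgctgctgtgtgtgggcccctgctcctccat
Hnf4a downstream: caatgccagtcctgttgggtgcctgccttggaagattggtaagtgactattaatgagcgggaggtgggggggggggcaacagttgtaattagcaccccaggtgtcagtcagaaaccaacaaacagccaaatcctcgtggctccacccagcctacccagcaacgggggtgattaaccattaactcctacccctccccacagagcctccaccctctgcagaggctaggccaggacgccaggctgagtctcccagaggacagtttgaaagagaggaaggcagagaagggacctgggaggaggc

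Both GATA genes were at least 2-fold higher as deposited, Gata6 between measured values and Gata4 against a value under the control limit. Gata6, which encodes a factor of crypt cells and of the whole length of the small intestine, had 7.26 in circPan3-/- cells against 5.58 in circPan3+/+ cells. Its difference of 1.68, or 3.21-fold between values above both control limits, ranked 255 of 14613 genes. Gata4, which encodes the factor that keeps jejunal identity and represses ileal genes, had 5.64 in circPan3-/- cells against 4.57 in circPan3+/+ cells. Its difference of 1.07 was just over 2-fold, but the circPan3-/- value was 0.09 above the control limit and the circPan3+/+ value below it, which leaves a bound of at least 0.58 for the difference. Gata5, the other gut member of the family, had 6.10 in circPan3-/- cells against 4.93 in circPan3+/+ cells, at least 2.05-fold. Gata1 and Gata2, which are genes of blood cell lineages, were under the control limits on both arrays, with differences of -0.32 and 0.16. Of the 5 measured GATA genes, the 3 gut genes were at least 2-fold higher as deposited, against 7.47% of all 19682 named genes. After centring, loess or quantile normalization 1 of the 5 was, Gata6.

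The Krüppel-like pair was at least 2-fold higher, with all 4 values above the control limits. Klf5 had 7.43 in circPan3-/- cells against 5.97 in circPan3+/+ cells, and the difference was 1.45 or 2.74-fold. Klf4 had 7.08 in circPan3-/- cells against 5.93 in circPan3+/+ cells, and the difference was 1.15 or 2.21-fold. The member linked to differentiated cells was thus 0.31 below the member linked to dividing cells. In the family as a whole, 6 of 17 genes passed 2-fold upwards and 0 downwards, with a median of 0.56, against 7.47% and 2.16% and a median of 0.28 over all 19682 named genes. The 6 genes as deposited were Klf4, Klf5, Klf6, Klf9, Klf10 and Klf11. After loess 3 of the 17 were at least 2-fold higher, Klf6, Klf9 and Klf10. Klf5 at 0.92 and Klf4 at 0.61 were then under 2-fold. Klf6, an early response gene, had 9.50 in circPan3-/- cells against 7.76 in circPan3+/+ cells, or 3.36-fold, and Klf10, a gene induced by TGF-beta, had 6.83 in circPan3-/- cells against 5.18 in circPan3+/+ cells, or 3.16-fold. Klf3, a repressor of the family, was lowest of those above a limit, at 0.27, and 10 of the 17 genes were under both limits.

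Klf4 is also an early response gene, and early response genes as a list were higher on the circPan3-/- array. Of 18 measured, 12 were at least 2-fold higher and 0 lower, against 7.47% and 2.16% of all named genes, with a median of 1.55. The 18 include Klf4 itself, and without it 11 of 17 were higher, with a median of 1.57. Fosb had 8.34 in circPan3-/- cells against 5.79 in circPan3+/+ cells, and Jun had 9.23 in circPan3-/- cells against 6.82 in circPan3+/+ cells. Klf4, at 1.15, was below the median of that list. Ier3 was lowest of the list among genes above a limit, at 0.21. The part of these genes in the difference of Klf4 was not tested.

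Elf3 had the largest difference of the 9. Its signal was 8.01 in circPan3-/- cells against 6.03 in circPan3+/+ cells, and the difference was 1.98 or 3.94-fold, and it ranked 139 of 14613 genes. Both values were above the control limits. Ehf, a closely related epithelial ETS gene, had 6.97 in circPan3-/- cells against 4.56 in circPan3+/+ cells. As deposited its difference was larger than that of any of the 9. The circPan3+/+ value was under the control limit, and the bound of at least 3.77-fold is below the 3.94-fold of Elf3. Among ETS genes that are also expressed outside epithelia, Ets2 differed by 0.72, Elf1 by 0.64, Elf2 by 0.40, Elf4 by 0.10 and Ets1, a gene of lymphocytes and endothelium, by -0.38. Elf5, another epithelial member, differed by 0.17 between values under both limits. Of the 14 ETS, grainyhead and Ovol genes listed, 5 were at least 2-fold higher and 0 lower, with a median of 0.68, against 7.47% higher over all named genes. The count was 3 after centring, loess or quantile normalization and 2 with values under a limit set to it, and the median after loess was 0.14. The start of Elf3 is shown as that of the gene with the largest difference. The window lies at chr1:135258423-135258722 on the minus strand of GRCm38.p6, and none of the 5 motifs was found in it, so that it has no capitals.
Elf3: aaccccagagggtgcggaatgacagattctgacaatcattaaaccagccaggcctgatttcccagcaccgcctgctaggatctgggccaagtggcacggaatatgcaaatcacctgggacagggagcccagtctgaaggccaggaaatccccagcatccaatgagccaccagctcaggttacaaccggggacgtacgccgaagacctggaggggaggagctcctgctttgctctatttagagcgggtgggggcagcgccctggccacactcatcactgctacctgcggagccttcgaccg

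The number of factor genes past 2-fold depended on the scaling. After centring on the median difference of named genes, 5 of 9 were at least 2-fold higher: Elf3 at 1.62, Cdx2 at 1.42, Gata6 at 1.32, Cdx1 at 1.11 and Klf5 at 1.10. Among the 14613 named genes centring turned 1414 higher and 400 lower genes into 561 and 724, so that 3.84% were higher. After loess, 4 of 9 were higher, Elf3 at 1.45, Cdx2 at 1.28, Gata6 at 1.14 and Cdx1 at 1.00, against 3.44% of these genes. Quantile normalization gave 5 of 9, against 4.31%. With values under a control limit set to that limit, 5 of 9 were at least 2-fold higher, the genes Elf3, Gata6, Cdx2, Klf5 and Klf4, against 3.69%. The difference stayed above 0 for each of the 9 under these 4 alternatives. None of the 9 was 2-fold lower under them, against 4.95% of named genes after centring, 4.92% after loess, 4.43% after quantile normalization and 0.534% with the limits. Of the 6 factor genes above the limit on both arrays 4 were at least 2-fold higher, against 13.3% of the 3028 such genes, and all 5 with values found in no other row were, against 12.7% of the 4886 such genes. At a threshold of 1.5-fold all 9 were higher, against 30.3%.

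**Figure D2:**
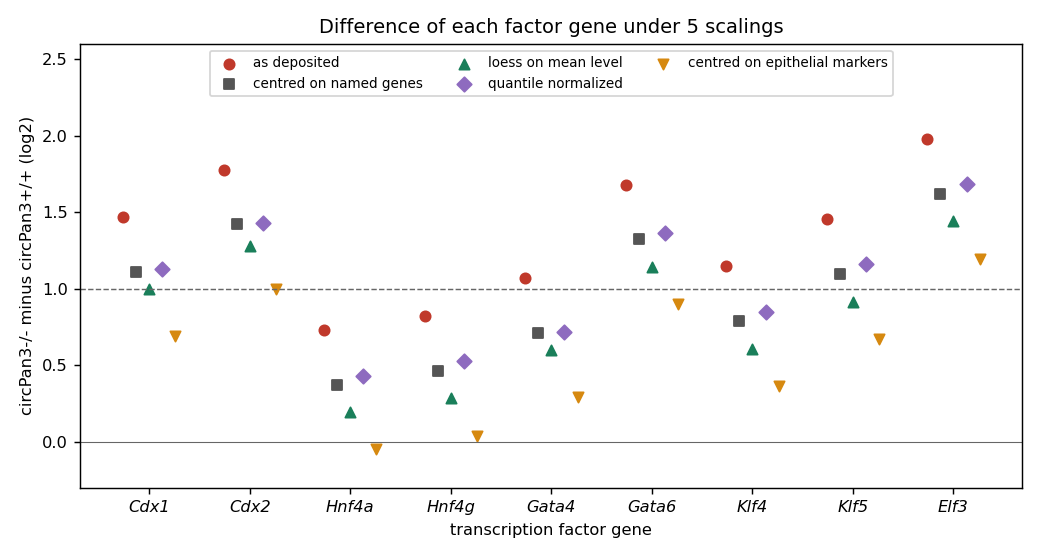
Difference of each factor gene (log2, circPan3-/- minus circPan3+/+, vertical axis) as deposited and under 4 other scalings, 1 marker for each; the dashed line is 2-fold. Elf3 is above the line under all 5, at 1.20 when centred on epithelial markers, and the values of Hnf4a and Hnf4g are below it under all 5.

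The 9 differences were also above the loess line. Their mean levels lay between 5.10 and 7.02, where the loess line through all named genes runs near the median of 0.50. After loess, Elf3 ranked 179, Cdx2 ranked 251 and Gata6 ranked 358 of 14613 genes, Cdx1 ranked 499 and Klf5 ranked 602. Klf4 and Gata4 stood at 9.39% and 9.59% from the top, and Hnf4g and Hnf4a at 24.6% and 31.1%.

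**Figure D3:**
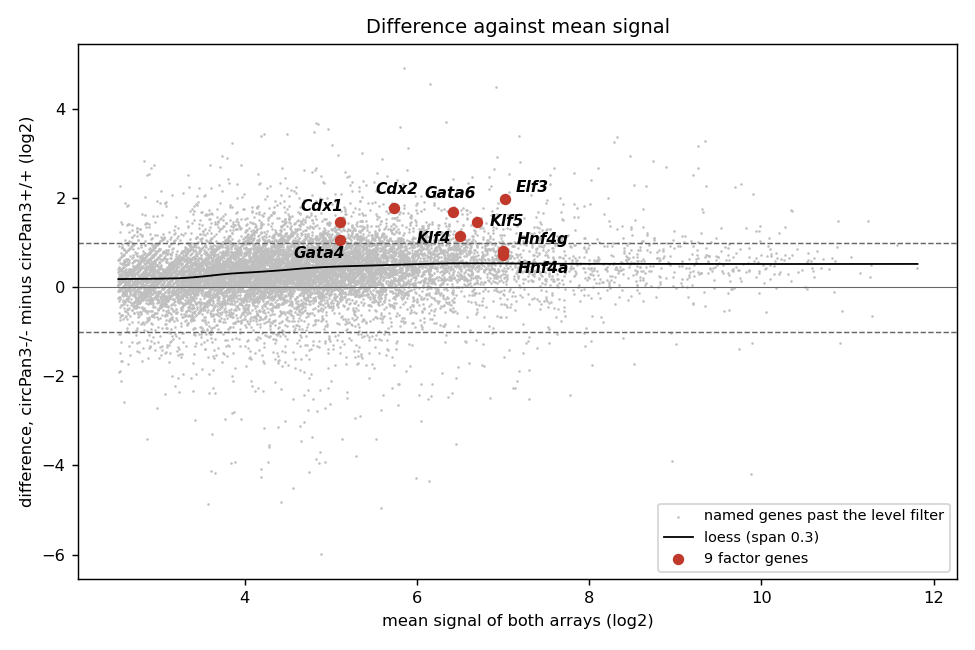
Difference (log2, circPan3-/- minus circPan3+/+, vertical axis) against the mean signal of both arrays (log2, horizontal axis) for 14613 named genes in grey and the 9 factor genes in red; the black line is the loess fit and the dashed lines are 2-fold. The 9 red points are above the black line, Elf3 highest at 1.98 and the HNF4 genes closest to it.

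Several other transcription factor genes of the gut were also higher on the circPan3-/- array. Of 71 measured genes in 7 lists of factors, with the 9 left out, 25 passed 2-fold upwards and 0 downwards, and the median was 0.74, against 7.47% higher and a median of 0.28 over all named genes. Of the 71, 44 were under both control limits, and 12 of the 71 were at least 2-fold higher once values under a limit were set to it, against 2.74% of all named genes. No test of the 9 against these other factors was possible.

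Of 19 measured factors of enterocyte maturation, 17 were above 0. As deposited 6 were at least 2-fold higher and 0 lower, against 7.47% and 2.16% of all named genes. The median was 0.85, and 13 were under both limits. With values under a limit set to it 2 were at least 2-fold higher, against 2.74% of all named genes. After centring, loess or quantile normalization 5 were at least 2-fold higher and 2 lower. Nr5a2, a nuclear receptor of crypt cells, had 6.09 in circPan3-/- cells against 3.75 in circPan3+/+ cells, or at least 2.04-fold. Vdr, the vitamin D receptor gene, had 7.38 in circPan3-/- cells against 5.65 in circPan3+/+ cells, or 3.31-fold. Creb3l3, a factor of lipid and apolipoprotein genes, was lower, with 5.30 in circPan3-/- cells against 6.09 in circPan3+/+ cells, and the difference was -0.79. Maf, a regulator of mature enterocytes, stood at 0.96, and Smad4, the shared mediator of BMP and TGF-beta signals, at 0.94.

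Crypt base and secretory factors had the highest median of the 7 lists, 1.20, with 8 of 15 at least 2-fold higher and 0 lower, against 7.47% higher over all named genes. Of the 15, 7 were under both limits. The count of 8 became 5 with centring or with loess and 7 with quantile normalization, against 3.84%, 3.44% and 4.31% of the 14613 named genes. With values under a limit set to it the count was 3, against 3.69%. Atoh1, the master gene of secretory cells, had 5.63 in circPan3-/- cells against 3.44 in circPan3+/+ cells, or at least 1.48-fold. Creb3l1 had 6.48 in circPan3-/- cells against 4.65 in circPan3+/+ cells, or at least 2.67-fold, and encodes a factor of secretory capacity. Among caudal and regional homeobox genes, Isx, a repressor of vitamin A uptake that lies downstream of CDX2, had 6.50 in circPan3-/- cells against 5.41 in circPan3+/+ cells. Pdx1, of the proximal duodenum, and Sox2 and Barx1, of the stomach, had both values under the control limits. Among HNF and FOXA genes, 1 of 5 was at least 2-fold higher, Foxa3, between values under the limits, and Foxa1 differed by 0.40.

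By the distance between both log2 values, over 2 arrays only and among 79 other factor genes, Hnf4a and Hnf4g were each other's nearest neighbour at 0.06. The nearest to Cdx2 was Creb3l1 at 0.24, and the nearest to Cdx1 and to Gata4 was Spdef, a goblet cell factor, at 0.23 and 0.16. Vdr was nearest to Gata6 at 0.14 and to Klf5 at 0.32, Smad4 to Klf4 at 0.28 and Klf5 to Elf3 at 0.59. The distance mixes level and difference, and levels of separate probe sets are not on 1 scale.

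**Figure D4:**
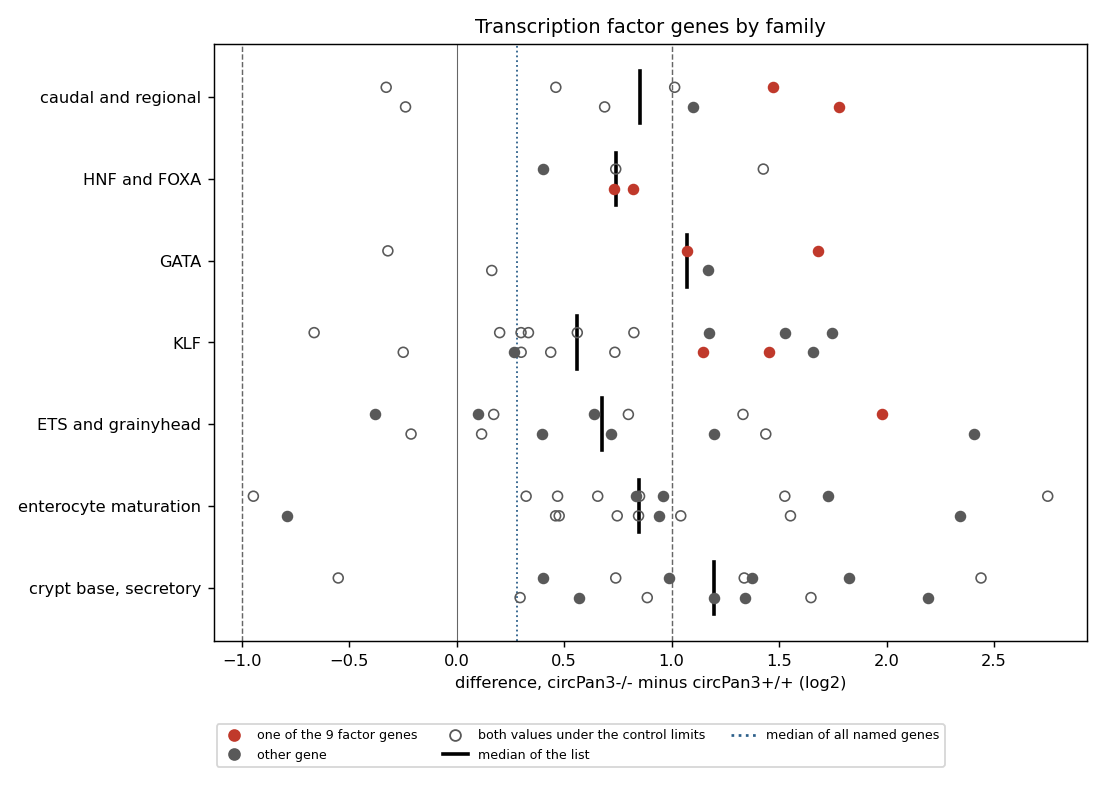
Difference (log2, circPan3-/- minus circPan3+/+, horizontal axis) of the measured genes of 7 lists of transcription factors, 1 point per gene, with the 9 factor genes in red and open points for genes under both control limits; thick bars are list medians, the dotted line is the median of all named genes, 0.28, and dashed lines are 2-fold. No point is left of -1, and the crypt base and secretory list has the highest median, 1.20.

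Genes that are known or proposed to act downstream of the factors, called linked genes here, lay on both sides of 0. For CDX2, 5 of 16 linked genes passed 2-fold upwards and 1 downwards, against 7.47% and 2.16% of all named genes. The median was 0.35, against 0.28 over all named genes. The 16 include Cdx1 and Hnf4a themselves, and without them 4 of 14 were higher. After loess 3 of the 16 were higher and 1 lower, against 3.44% and 4.92% of the 14613 named genes, and the median was -0.15. With values under a limit set to it 3 were higher and 1 lower, against 3.69% and 0.534%. Slc26a3, a chloride and bicarbonate exchanger gene, had 5.96 in circPan3-/- cells against 3.96 in circPan3+/+ cells, or at least 1.86-fold. Gucy2c, the guanylin receptor gene, had 8.01 in circPan3-/- cells against 6.37 in circPan3+/+ cells, or 3.11-fold. At the other end Alpi, the intestinal alkaline phosphatase gene, had 6.63 in circPan3-/- cells against 7.89 in circPan3+/+ cells, 2.39-fold lower, and Krt20, a keratin gene of mature cells, stood at -0.42. Sis, the sucrase-isomaltase gene and a textbook target of CDX2, had 8.74 in circPan3-/- cells against 8.71 in circPan3+/+ cells, and the difference was 0.03.

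For HNF4, 1 of 16 linked genes was at least 2-fold higher and 3 lower, against 7.47% and 2.16% of all named genes. The median was 0.19, and 6 were lower after loess, against 3.93% of all named genes. Apoa4, an apolipoprotein gene of fat absorption, had 6.05 in circPan3-/- cells against 8.55 in circPan3+/+ cells, 5.66-fold lower. Fabp1, a fatty acid binding protein gene, had 5.23 in circPan3-/- cells against 7.59 in circPan3+/+ cells, at least 4.10-fold lower. The tight junction gene Cldn15 was the highest, with 7.13 in circPan3-/- cells against 5.87 in circPan3+/+ cells, or 2.41-fold, followed by Maf. Mttp, the lipid transfer protein gene, differed by 0.32 and Apob by -0.76. The 3 lower genes, Apoa4, Fabp1 and Apoa1, are also enterocyte markers, a list in which 5 of 18 were at least 2-fold lower and 0 higher, with a median of -0.38.

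For GATA4, jejunal linked genes had a median of 0.28 over 10 genes. Of these 2 were at least 2-fold higher and 3 lower, against 7.47% and 2.16% of all named genes. With values under a limit set to it 1 was higher and 2 lower, against 3.69% and 0.534% of the 14613 named genes. Apoa4 and Fabp1 were again lowest, and Dpyd, a pyrimidine breakdown gene, at 1.75 and Tfrc, the transferrin receptor gene, at 1.37 were highest. The ileal list had a median of -0.05 over 7 genes. Of these 2 were at least 2-fold higher and 1 lower, against the same 7.47% and 2.16%. The 2 were Gata5 at 1.17 and Fgf15, between values under both limits, at 1.07. With values under a limit set to it 1 was higher and 0 lower. The lower gene was Slc10a2, the ileal bile acid transporter gene that GATA4 represses in the jejunum. Slc10a2 had 3.46 in circPan3-/- cells against 6.23 in circPan3+/+ cells, which leaves a bound of -0.68 for the difference. Fabp6, the ileal bile acid binding protein gene, differed by only -0.11, with 9.28 in circPan3-/- cells against 9.39 in circPan3+/+ cells.

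For the Krüppel-like factors, proliferation genes linked to KLF5 had a median of 0.55 over 8 genes, with 2 at least 2-fold higher and 0 lower. Over all named genes 7.47% were higher and 2.16% lower, with a median of 0.28. With values under a limit set to it the shares were 3.69% and 0.534% of the 14613 named genes. After loess the median was 0.05 for KLF5-linked, 0.16 for KLF4-linked and -0.15 for ELF3-linked genes. Mki67, the proliferation marker gene, had 8.77 in circPan3-/- cells against 6.89 in circPan3+/+ cells, and Top2a, a mitotic topoisomerase gene, had 7.44 in circPan3-/- cells against 5.70 in circPan3+/+ cells. Genes linked to KLF4 had a median of 0.69 over 7 genes, with 2 at least 2-fold higher and 1 lower. The 2 were the keratin gene Krt19 at 1.06 and the cell cycle inhibitor gene Cdkn1b, between values under both limits, at 1.48. The lower one was Alpi at -1.26. With values under a limit set to it 1 was higher and 1 lower. Cdkn1a, another cell cycle inhibitor gene, stood at 0.69. Genes linked to ELF3 had a median of 0.29 over 10 genes, with 1 at least 2-fold higher and 2 lower. With values under a limit set to it 0 were higher and 1 lower. Tgfbr2, the receptor gene known as the ELF3 target in mouse gut, had 5.85 in circPan3-/- cells against 6.31 in circPan3+/+ cells, and the difference was -0.46. The mucin gene Muc4 stood at 2.01, or at least 1.77-fold, Krt8 at 0.78, Ptgs2, the inducible cyclooxygenase gene, at -1.41, and Lcn2 at -1.40 with no fold allowed by the limits.

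**Figure D5:**
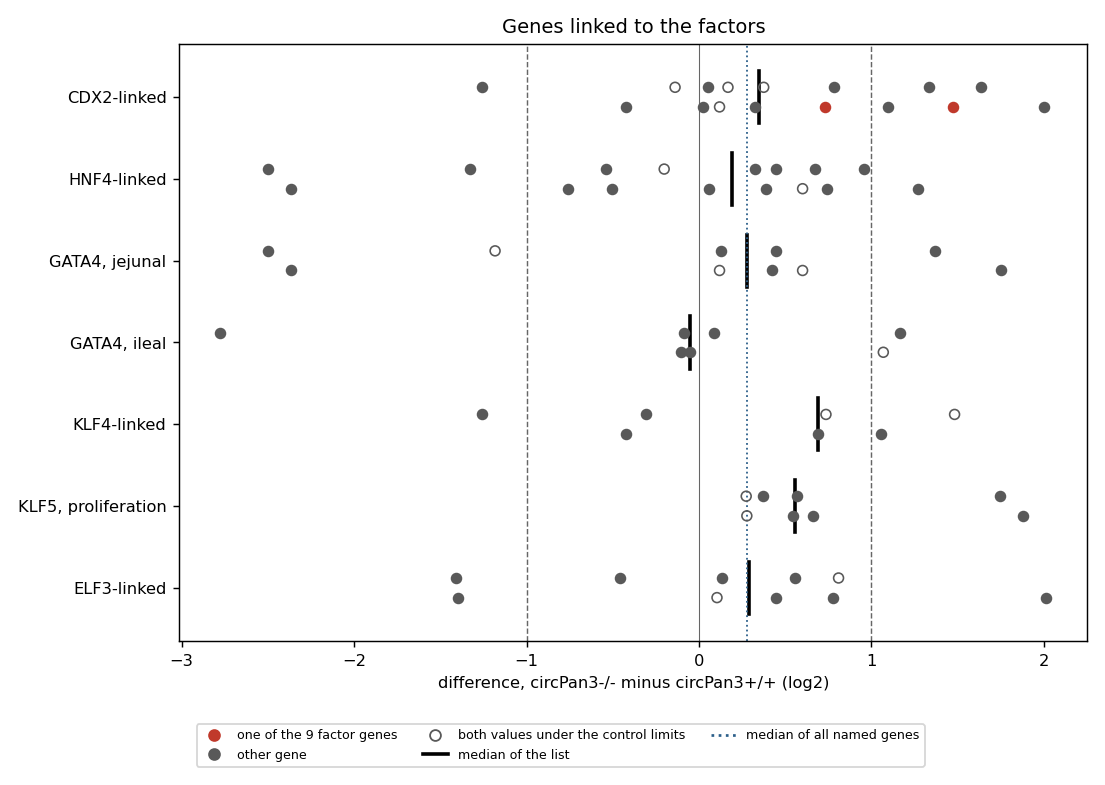
Difference (log2, circPan3-/- minus circPan3+/+, horizontal axis) of genes linked to each factor, 1 point per gene, red for Cdx1 and Hnf4a and open for genes under both control limits; thick bars are list medians, the dotted line is the median of all named genes, 0.28, and dashed lines are 2-fold. Each list but that of KLF5 has points on both sides of 0, and the medians run between -0.05 and 0.69, below the 1.45 of the 9 factor genes.

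The promoter windows of 4 linked genes are shown because they hold the CDX letters and none of the 4 genes was 2-fold higher. Only Sis and Alpi are in the CDX2 list. Fabp1 was listed for HNF4 and GATA4 and Slc10a2 for GATA4, so that neither is set against Cdx2. Sis differed by 0.03 and Alpi by -1.26, while Fabp1 and Slc10a2, under the control limit in circPan3-/- cells, have bounds of -2.04 and -0.68. They were chosen after their values were seen. Of the 12 CDX2-linked genes with a window, 5 held the CDX letters, against 10.9% of all windows, and these 5 were Sis, Alpi, Mep1a, Krt20 and Clec2h. On GRCm38.p6 the Sis window lies at chr3:72967814-72968113 on the minus strand and the Fabp1 window at chr6:71199629-71199928 on the plus strand. The Slc10a2 window lies at chr8:5105238-5105537 and the Alpi window at chr1:87101557-87101856, both on the minus strand. Capitals mark the CDX letters on either strand, 1 match in Sis, 3 in Fabp1, 3 in Slc10a2 and 1 in Alpi, and in Alpi also the HNF4 letters CAAAGTCCA at bases 232 to 240.
Sis: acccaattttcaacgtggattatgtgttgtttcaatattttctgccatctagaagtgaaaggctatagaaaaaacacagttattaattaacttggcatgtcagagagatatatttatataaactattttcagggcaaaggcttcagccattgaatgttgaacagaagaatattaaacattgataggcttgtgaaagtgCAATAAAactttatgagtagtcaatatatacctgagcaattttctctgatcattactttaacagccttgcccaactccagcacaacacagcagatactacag
Fabp1: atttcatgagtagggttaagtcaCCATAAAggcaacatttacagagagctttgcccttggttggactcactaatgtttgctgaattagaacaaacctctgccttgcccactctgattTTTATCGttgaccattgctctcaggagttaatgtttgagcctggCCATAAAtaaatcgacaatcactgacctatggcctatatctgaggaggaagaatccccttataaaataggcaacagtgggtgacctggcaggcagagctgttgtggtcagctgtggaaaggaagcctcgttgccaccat
Slc10a2: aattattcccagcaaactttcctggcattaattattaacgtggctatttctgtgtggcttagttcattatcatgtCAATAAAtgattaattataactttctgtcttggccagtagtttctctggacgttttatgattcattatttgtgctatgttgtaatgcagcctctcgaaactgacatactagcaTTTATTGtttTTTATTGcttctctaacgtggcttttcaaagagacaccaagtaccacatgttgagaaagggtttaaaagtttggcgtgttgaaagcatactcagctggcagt
Alpi: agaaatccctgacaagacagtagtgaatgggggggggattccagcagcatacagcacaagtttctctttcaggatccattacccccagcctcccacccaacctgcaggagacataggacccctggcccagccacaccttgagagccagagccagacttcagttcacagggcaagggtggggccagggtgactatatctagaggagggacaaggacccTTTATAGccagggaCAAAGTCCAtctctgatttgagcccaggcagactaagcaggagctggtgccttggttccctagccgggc
The HNF4 letters were found in 1 of 13 HNF4-linked genes with a window, Treh, against 0.475% of all windows. The GATA letters were found in 2 of 9 jejunal genes, Lct and Adh1, against 11.2%. The KLF letters were found in 2 of 7 KLF5-linked and 1 of 5 KLF4-linked genes, against 17.6%. The ETS letters were found in 2 of 9 ELF3-linked genes, against 9.35%. These lists are too small to set such counts apart from the shares.

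Markers of several cell types also differed between the arrays. Of 13 general epithelial markers, 4 were at least 2-fold higher and 0 lower, against 7.47% and 2.16% of all named genes. Their median was 0.78, and 0 were higher after loess. Their summed log2 signal was 111.9 in circPan3-/- cells against 104.1 in circPan3+/+ cells, and all 13 were above a control limit. Tspan8 at 1.22 and the E-cadherin gene Cdh1 at 1.16 were the highest and Cldn4 at -0.22 and Krt20 at -0.42 the lowest. When differences were centred on the epithelial median, Elf3 alone of the 9 was at least 2-fold higher, at 1.20, against 1.41% of named genes. Cdx2 was then at 0.999, Gata6 at 0.90, Hnf4g at 0.04 and Hnf4a at -0.05.

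Many goblet, Paneth and enteroendocrine markers were higher on the circPan3-/- array. Over all named genes 7.47% were at least 2-fold higher, or 2.74% with values under a limit set to it. Of 10 goblet markers, 8 were at least 2-fold higher at a median of 1.89, led by Klk1 and Clca1. Of 9 Paneth markers, 8 were higher at a median of 2.25, led by Ang4 and Pla2g2a. Of 14 enteroendocrine markers, 7 were higher at a median of 0.95, or 4 with values under a limit set to it, led by Gip and Gcg. The 9 tuft markers were all under both limits. Stem cell markers had a median of 1.34, with Slc12a2 at 2.93 and Prom1 at 1.80 but Lgr5 at -3.89 and Olfm4 at -1.25.

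Of 13 myeloid markers, 10 were at least 2-fold lower at a median of -1.75, against 2.16% of all named genes. Their summed log2 signal was 60.1 in circPan3-/- cells against 82.3 in circPan3+/+ cells. In circPan3-/- cells only Lyz2 was above the control limit, so that the sum of 60.1 rests mostly on values under it. With values under a limit set to it 3 of the 13 were at least 2-fold lower, Cd68, Fcgr3 and Itgam, against 0.534% of the 14613 named genes. Cd68 had 4.21 in circPan3-/- cells against 6.97 in circPan3+/+ cells, at least 2.66-fold lower, and S100a8 had 1.92 in circPan3-/- cells against 5.85 in circPan3+/+ cells, at least 1.23-fold lower. Of 11 T and NK cell markers, 3 were lower at a median of -0.24, against 2.16% of all named genes. Il7r and Gzma were among the 3, and with values under a limit set to it 1 was lower, Gzma. Mesenchymal and endothelial markers had a median of -0.36, with 4 of 13 lower and 1 higher, against 2.16% and 7.47% of all named genes. With values under a limit set to it 3 were lower and 1 higher. Emcn stood at -2.88, Sparc at -1.78 and Acta2 at 1.49. None of the 7 B cell and plasma cell markers was 2-fold lower or higher, at a median of -0.11, with Jchain at 0.55, Mzb1 at -0.39 and Cd79b at -0.85, and neuron and glia markers had one of -0.39 with all 5 under both limits. The part of these cell types in the differences of the factor genes was not tested.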

How the data were processed

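The authors made the values with Affymetrix Power Tools and RMA, per the submitters' processing notes; genome build and tool versions were not given in the sources used here. What they deposited is 1 log2 signal per transcript cluster and array, used unchanged. The number of arrays, 1 per genotype, limits the precision.

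Rows were named from the platform annotation, brought up to date with the RefSeq gene table (GRCm38.p6) by Entrez identifier or synonym. There were 31258 rows with 1 symbol and 1492 with several, which were not named. Predicted models and noncoding RNAs were left out of the named genes, and the brightest row stood for a gene. The negative control rows numbered 5222. A gene was called apart at 2-fold, a rule of size with no test. Where 1 value was under its array's limit, the limit took its place and the fold is a bound; no fold is given where both were, or where the brighter value did not pass the other array's limit. List counts use all measured members, and the linked gene lists come from general knowledge of the factors.

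Alternatives were centring, loess on mean level (span 0.3), quantile normalization, averaging a symbol's rows, a 1.5-fold threshold, limits as bounds and genes above both limits. Centring on epithelial markers, and the use only of values that stand in no other row, were added after seeing the data. The 9 genes and all lists were chosen with earlier results of these data known. Genes named are the 9 factors, up to 2 above and 2 below the median of named genes in each list with a value above a limit, the nearest factor to each, and Cdx4, Gata5, Klf6 and Ehf; some other genes of this rule are not reported here. The others, such as Sis, Mttp, Tgfbr2, Elf1, Ets2, Cdkn1b and Gata1, were chosen after their values were seen. Python 3.11.15, pandas 2.3.3, numpy 2.4.6 and statsmodels 0.14.6 were used, and the functions were tested on simulated data.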

Additional observations from a re-analysis of the deposited data

How the results depend on the processing

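As deposited, 7 of the 9 factor genes were at least 2-fold higher with a median difference of 1.45. The median was 1.10 after centring on named genes, 0.92 after loess with 4 genes higher, 1.13 after quantile normalization, and 1.15 with values under a limit set to it. Of the 6 genes above the limit on both arrays, 4 were higher, with a median difference of 1.300. Centring on epithelial markers, added after seeing the data, left 1 gene higher and a median of 0.67, and turned Hnf4a to -0.049; this follows from the subtraction of the epithelial median of 0.78. At 1.5-fold all 9 were higher, against 30.3% of named genes. The 5 genes with values in no other row were all at least 2-fold higher, against 12.7% of such genes, and the mean of all rows changed nothing because each gene had 1 row. No alternative gave a factor gene that was 2-fold lower. Where the circPan3+/+ value was under the control limit (Cdx1, Cdx2 and Gata4), signal over background limits the fold. No paired analysis was possible because there was 1 array per genotype and no test.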
